A study of Arabidopsis thaliana with 9 samples.

Results

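The genes described here are the nuclear genes of the photosynthetic light reactions in Arabidopsis thaliana: the LHCB and LHCA antenna genes and the nuclear genes for subunits of photosystem I (PSA) and photosystem II (PSB). They were chosen by gene identifier, and number 40 of the 28117 genes in the table: 18 antenna genes (14 LHCB and 4 LHCA), 12 PSI genes and 10 PSII genes. The test covered 21168 genes, those that reached 0.5 FPKM in 3 or more libraries, and it included all 40. The series concerns the PEAT complexes, which contain ARID-domain DNA-binding proteins and Enhancer of Polycomb-related (EPCR) proteins. The genotypes were the triple mutant arid2-/-arid3-/-arid4-/- (arid2/3/4), the double mutant epcr1-/-epcr2-/- (epcr1/2) and wild type (WT), with 3 libraries each. All seedlings were 10 days old and grew on MS plates at 22 ºC under 16 h of light and 8 h of dark. Each RNA extraction started from 1 g of whole seedlings, so a library is a pool of plants and organs; the alleles and the WT accession are not given in the sources used here.

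Antenna proteins bind chlorophyll and carotenoids and pass absorbed light energy to the photosystems, with LHCB proteins mainly at photosystem II and LHCA proteins at photosystem I. Photosystem II oxidises water with the help of an extrinsic complex on the lumen side, and photosystem I reduces ferredoxin on the stroma side. The reaction centre proteins are encoded in the chloroplast, while the antenna and most peripheral subunits are encoded in the nucleus and are among the most abundant transcripts of green tissue. Antenna gene transcription is known to respond to light, to the circadian clock and to the state of the chloroplast.

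Values are FPKM (fragments scaled by transcript length and library size), and fold changes are on the log2(FPKM + 1) scale, mutant over WT, with ± giving the SE. The libraries held a rough 17.8 to 26.9 M fragments where numbered 1 or 2 and 49.0 to 58.9 M where numbered 3. Replicates 1 and 2 of a genotype were nearly alike across genes (Pearson r of 0.994 to 0.995), and replicate 3 stood apart from both (r of 0.835 to 0.883). As no label says that replicates came from separate cultures, the p-values reflect only how far these libraries differ, and part of that may be technical. The 278 chloroplast and mitochondrial genes in the table were all listed at 0, so the chloroplast-encoded subunits are not described here. Of the mutated genes, ARID2, ARID3 and ARID4 fell in arid2/3/4, with log2 fold changes of -2.87 ± 0.12, limma adjusted p = 3.27e-05, -0.83 ± 0.16, limma adjusted p = 0.00945, and -1.48 ± 0.15, limma adjusted p = 0.000769. EPCR1 fell in epcr1/2 (-3.08 ± 0.24, limma adjusted p = 0.00019), as did ARID4 (-0.48 ± 0.15, limma adjusted p = 0.0454). EPCR2 had 10.14, 10.44 and 12.02 FPKM in epcr1/2 and 8.36, 6.99 and 11.80 FPKM in WT, and did not pass (limma adjusted p = 0.474).

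Promoter sequences are shown for 8 genes on which the results turn: paralogues that differed in level or response, and the antenna genes with the most CCAATC matches. Each window is the 250 bases before the annotated gene start in the RefSeq TAIR10.1 assembly, 5′ to 3′ on the gene's own strand. Capitals mark matches, on either strand, to the core of the G-box (CACGTG). They also mark the core of the I-box (GATAAG). The core of the evening element (AATATCT) is marked as well. So is the CCAAT-box motif (CCAATC). The TATA motif (TATAAA) was searched but is not capitalised. The windows were chr1:10473503-10473752 (minus strand) for LHCB1.2, chr1:10477635-10477884 (plus strand) for LHCB1.3, chr2:1824481-1824730 (minus strand) for LHCB2.1, chr3:10255656-10255905 (plus strand) for LHCB2.3, chr5:208616-208865 (plus strand) for LHCB4.1, chr3:17495034-17495283 (minus strand) for LHCA4, chr4:14204062-14204311 (minus strand) for PSAE1, and chr2:8736484-8736733 (plus strand) for PSAE2.
LHCB1.2: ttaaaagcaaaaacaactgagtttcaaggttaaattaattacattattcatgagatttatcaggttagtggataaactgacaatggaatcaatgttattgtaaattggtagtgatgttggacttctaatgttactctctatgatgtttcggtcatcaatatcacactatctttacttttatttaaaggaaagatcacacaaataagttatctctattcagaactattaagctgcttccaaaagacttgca
LHCB1.3: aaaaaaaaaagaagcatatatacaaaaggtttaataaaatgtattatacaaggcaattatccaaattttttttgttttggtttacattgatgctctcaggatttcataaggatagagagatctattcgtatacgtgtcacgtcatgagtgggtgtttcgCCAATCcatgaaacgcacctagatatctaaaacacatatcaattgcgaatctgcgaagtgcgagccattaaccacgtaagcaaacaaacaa
LHCB2.1: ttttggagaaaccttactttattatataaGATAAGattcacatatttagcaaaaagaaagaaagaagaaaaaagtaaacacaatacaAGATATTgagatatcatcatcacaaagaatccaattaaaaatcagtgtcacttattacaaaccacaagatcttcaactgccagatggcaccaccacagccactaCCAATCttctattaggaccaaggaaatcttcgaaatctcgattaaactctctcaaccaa
LHCB2.3: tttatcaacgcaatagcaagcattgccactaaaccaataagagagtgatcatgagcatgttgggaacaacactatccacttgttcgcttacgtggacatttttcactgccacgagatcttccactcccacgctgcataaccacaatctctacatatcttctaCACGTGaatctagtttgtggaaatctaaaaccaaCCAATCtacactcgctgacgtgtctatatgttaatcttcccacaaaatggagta
LHCB4.1: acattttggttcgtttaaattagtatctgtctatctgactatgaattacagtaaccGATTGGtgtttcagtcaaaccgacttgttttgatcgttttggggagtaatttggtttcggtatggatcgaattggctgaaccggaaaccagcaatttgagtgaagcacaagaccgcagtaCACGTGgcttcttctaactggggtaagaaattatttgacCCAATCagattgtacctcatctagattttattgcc
LHCA4: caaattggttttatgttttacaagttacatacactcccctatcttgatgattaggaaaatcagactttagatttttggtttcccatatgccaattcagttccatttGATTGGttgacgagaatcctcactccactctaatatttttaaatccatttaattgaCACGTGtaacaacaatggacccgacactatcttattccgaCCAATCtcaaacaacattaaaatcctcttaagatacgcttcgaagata
PSAE1: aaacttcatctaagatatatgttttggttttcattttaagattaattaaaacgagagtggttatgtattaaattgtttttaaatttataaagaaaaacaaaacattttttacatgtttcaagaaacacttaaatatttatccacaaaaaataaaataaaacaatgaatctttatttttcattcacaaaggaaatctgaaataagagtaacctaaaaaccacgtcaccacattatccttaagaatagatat
PSAE2: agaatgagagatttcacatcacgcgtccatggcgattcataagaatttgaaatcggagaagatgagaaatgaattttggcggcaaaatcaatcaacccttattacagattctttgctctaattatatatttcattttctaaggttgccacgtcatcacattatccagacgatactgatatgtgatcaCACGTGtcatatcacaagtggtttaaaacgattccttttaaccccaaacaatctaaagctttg

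CCAATC was in the window of 10 of 18 antenna genes (55.6%), 0 of 12 PSI genes and 1 of 10 PSII genes, against 10.2% of the 27443 windows of protein-coding genes. The windows of LHCB4.1 and LHCA4 each held 2 matches and a G-box core. LHCB1.2 had no match to the capitalised motifs, while LHCB1.3, from the same gene cluster, had 1 CCAATC. The G-box core, bound by light-response factors of the bZIP and bHLH families, was in 8 of 40 windows (20.0%), against 6.5% of all windows. The I-box core was in 22.5%, against 12.3%; the evening element core was in 10.0% of both sets, and TATAAA in 42.5%, against 47.3%. These are letter matches in the windows and were not tested.

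Every one of the 40 genes had a lower mean log2 level in both mutants than in WT. In arid2/3/4, 15 of 40 passed the test as lower and none as higher, where 12.0% of all tested genes were called lower. In epcr1/2, 20 of 40 passed as lower and none as higher, where 17.8% of all genes were called lower. The median log2 fold change of the 40 genes was -1.30 in arid2/3/4 and -1.36 in epcr1/2, beside -0.05 in arid2/3/4 and -0.12 in epcr1/2 over all tested genes. The range was -2.17 to -0.66 in arid2/3/4 and -2.56 to -0.37 in epcr1/2. In whole seedlings, fewer green cells and less of these transcripts per cell cannot be told apart.

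Of the 40 genes, 14 passed in both mutants, PSBQ2 passed in arid2/3/4 alone, and LHCA1, LHCA3, LHCA4, PSBP1, PSBR and PSBS passed in epcr1/2 alone. The comparisons share the WT libraries. The difference between the mutants was tested directly, and 0 of 40 genes passed in limma, where 10.5% of all genes were called in either direction. At an unadjusted p under 0.05, 1 of the 40 was higher in arid2/3/4 than in epcr1/2 and none lower. With the replicate number as a block, 2 passed as higher in arid2/3/4, LHCB1.2 and PSBS, beside 16.8% of all genes; with replicates 1 and 2 averaged, 0 passed in limma (1 at an unadjusted p under 0.05), beside 0.231% of all genes.

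**Figure D1:**
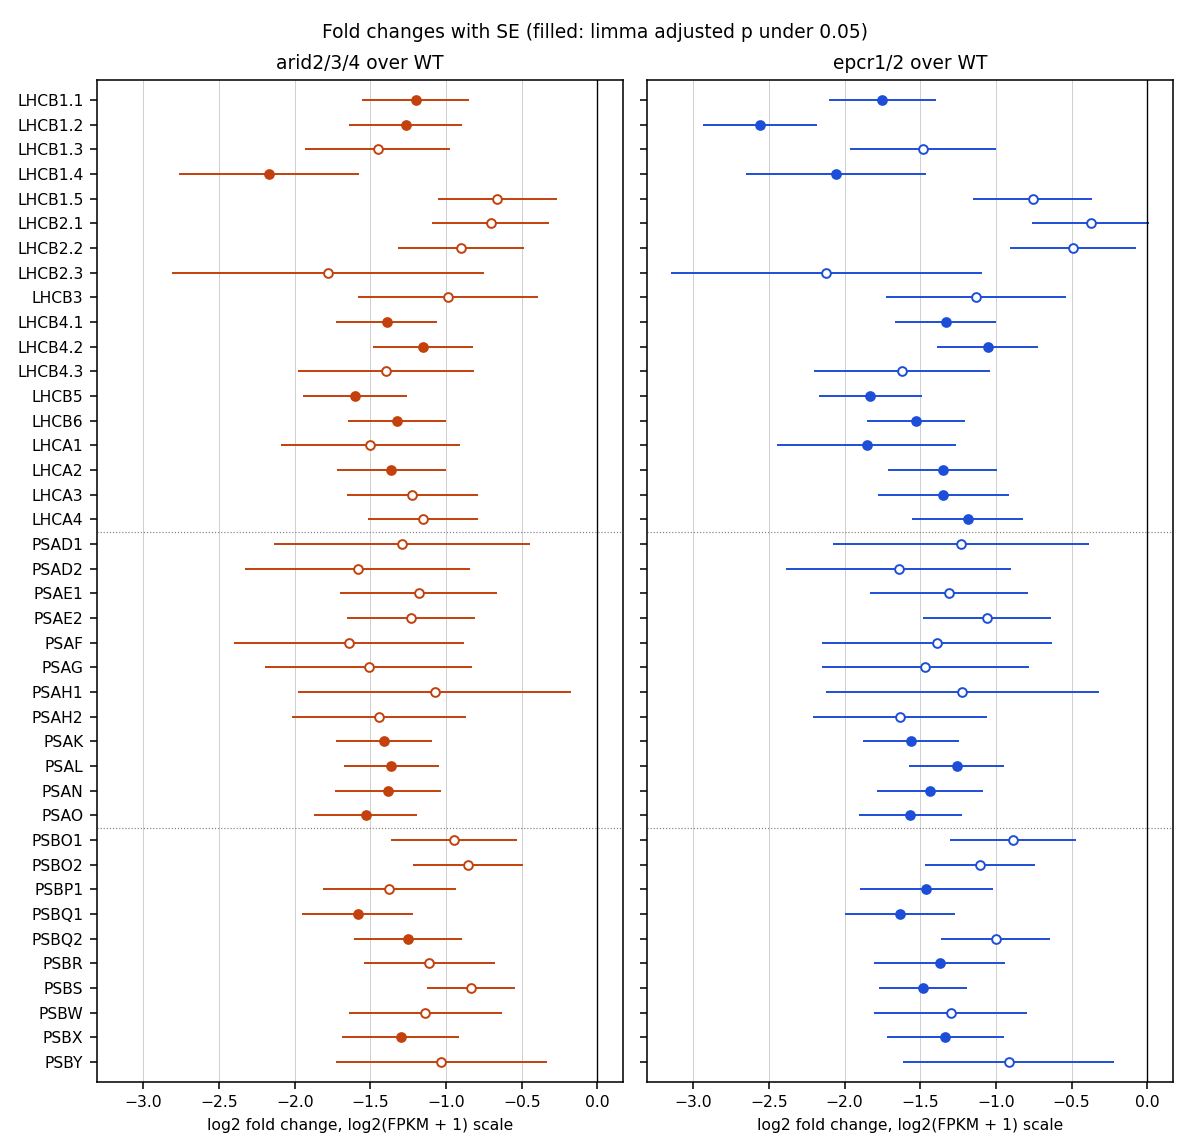
Log2 fold changes of the 40 genes with their SE, arid2/3/4 over WT on the left and epcr1/2 over WT on the right, on the log2(FPKM + 1) scale; filled points had a limma adjusted p under 0.05. All points lie below 0, from -2.17 to -0.66 in arid2/3/4 and from -2.56 to -0.37 in epcr1/2.

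The counts of calls depended on the settings of the fit, while the direction of the 40 genes did not. Without a filter on low values, 7 passed in arid2/3/4, beside 2581 of all 25725 genes called lower, and 12 in epcr1/2, beside 3825. Quantile normalization left 8 in arid2/3/4, beside 2668 of all 21168 genes called lower. Fitting only arid2/3/4 and WT left 1, beside 1948 of all genes. With the replicate number as a block, 39 of 40 passed as lower in arid2/3/4, beside 25.7% of all genes, and 37 of 40 in epcr1/2, beside 31.9%; the median SE of the 40 genes was 0.27 with the block and 0.42 without it. Within replicates 1 and 2 only, the counts were again 39 in arid2/3/4, beside 35.6% of all genes, and 37 in epcr1/2, beside 38.9%. With replicates 1 and 2 averaged to 1 sample and a block, 0 passed in arid2/3/4 in limma (23 at an unadjusted p under 0.05), beside 5.77% of all genes. In epcr1/2, 6 of the 40 passed in that fit, a share near the 14.8% of all genes. They were LHCB1.1, LHCB1.2, LHCB1.4, LHCB2.3, LHCA1 and PSBS. Without replicate 1 or 2 of arid2/3/4 or of WT, none passed in arid2/3/4, beside 1243 to 1519 of all 21168 genes called lower. In these fits 16 to 21 of the 40 were lower at an unadjusted p under 0.05, beside 2998 to 3629 of all genes. Without arid2/3/4 replicate 3, 31 passed in arid2/3/4, beside 4019 of all genes called lower. It was 8 without epcr1/2 replicate 1 or 2, beside 2006 to 2032, and 9 without WT replicate 3, beside 2315. In epcr1/2, 7 to 8 passed without replicate 1 or 2 of epcr1/2 or of WT, beside 2259 to 2711 of all 21168 genes called lower. Without arid2/3/4 replicate 1 or 2 it was 13 in epcr1/2, beside 3264 to 3347. All 40 fold changes stayed negative in both mutants in each of the 20 alternatives. The smallest was that of LHCB2.1 in epcr1/2, with a log2 fold change of -0.009 without WT replicate 3. The sizes of the fold changes moved: leaving out 1 library, in each case a replicate 3, changed the fold by over 1.5 times for 10 genes in arid2/3/4 and 6 in epcr1/2. Of these, only LHCB1.4 had passed, in arid2/3/4, where its log2 fold change of -2.17 was -2.88 without arid2/3/4 replicate 3. PSAH1 was at -1.91 in arid2/3/4 without arid2/3/4 replicate 3, and at -1.997 in epcr1/2 without epcr1/2 replicate 3. PSAD1 was at -2.10 in arid2/3/4 and -1.925 in epcr1/2 without replicate 3 of that mutant. LHCB2.3 was at -2.79 in arid2/3/4 and -2.89 in epcr1/2 without replicate 3 of that mutant, and at -1.09 in arid2/3/4 and -1.43 in epcr1/2 without WT replicate 3. The others were LHCB4.3, PSAG and PSBY in both mutants, and LHCA1, PSAD2 and PSAF in arid2/3/4.

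Libraries with the same number were also set side by side. In arid2/3/4, 40 of 40 genes were lower than WT in all 3 numbers, as were 38.9% of all tested genes; in epcr1/2 it was 39 of 40, beside 42.8%, and the exception was LHCB2.1. The median log2 ratio of the 40 genes was -1.58, -1.77 and -0.62 at numbers 1, 2 and 3 in arid2/3/4, and -1.47, -1.78 and -0.96 in epcr1/2. At number 3 the ratio was nearer to 0 than at both other numbers for 37 of 40 genes in arid2/3/4 and 33 of 40 in epcr1/2. The 3 mutant libraries lay entirely below the 3 WT libraries for 28 genes in arid2/3/4, beside 20.7% of all genes, and for 31 in epcr1/2, beside 28.1%.

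**Figure D2:**
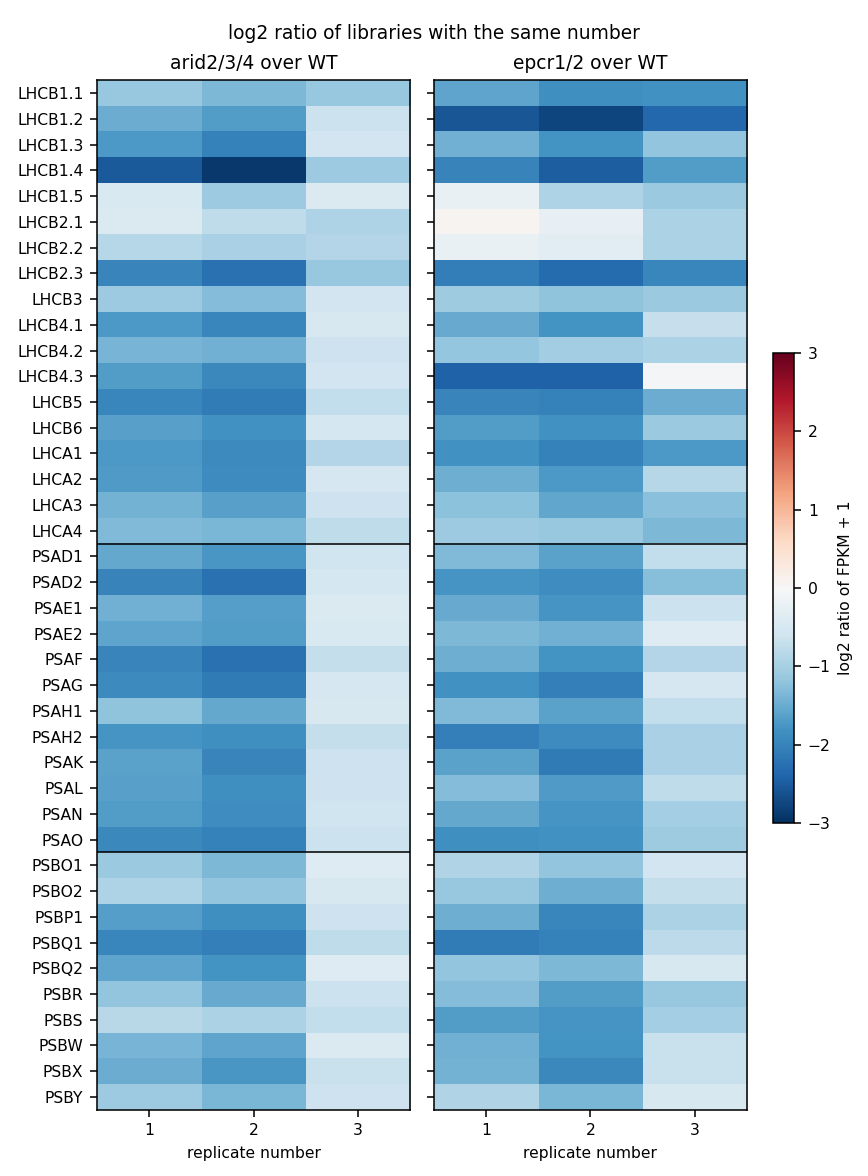
Log2 ratios of FPKM + 1 for libraries with the same replicate number, arid2/3/4 over WT on the left and epcr1/2 over WT on the right, with 1 row per gene and lines between antenna, PSI and PSII genes. Blue is lower than WT; the column of replicate 3 is paler in most rows, with medians of -0.62 in arid2/3/4 and -0.96 in epcr1/2.

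Together the 40 genes made up a smaller share of each mutant library than of each WT library. They took 4.61, 4.60 and 9.32% of the summed FPKM in arid2/3/4, 4.77, 4.64 and 6.22% in epcr1/2, and 11.8, 12.8 and 12.7% in WT. No mutant library reached the WT range, and replicate 3 was the highest of its genotype in each mutant. The mean share was 6.18 ± 2.72% in arid2/3/4, 5.21 ± 0.88% in epcr1/2 and 12.5 ± 0.54% in WT (SD, n = 3). Antenna genes took 3.14 ± 1.37% in arid2/3/4, 2.58 ± 0.13% in epcr1/2 and 6.31 ± 0.43% in WT. PSI genes took 0.906, 0.926 and 2.504% in arid2/3/4, 0.953, 0.959 and 1.89% in epcr1/2, and 2.82, 3.03 and 3.30% in WT. The PSI mean was 1.45 ± 0.92% in arid2/3/4, 1.27 ± 0.54% in epcr1/2 and 3.05 ± 0.24% in WT; without replicate 3 it was 0.916% in arid2/3/4, 0.956% in epcr1/2 and 2.93% in WT. PSII genes took 1.59 ± 0.44% in arid2/3/4, 1.36 ± 0.21% in epcr1/2 and 3.11 ± 0.33% in WT. Of the 100 genes with the highest FPKM in a library, 16, 16 and 36 were photosystem or antenna genes in arid2/3/4, 15, 14 and 25 in epcr1/2, and 35, 37 and 38 in WT.

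**Figure D3:**
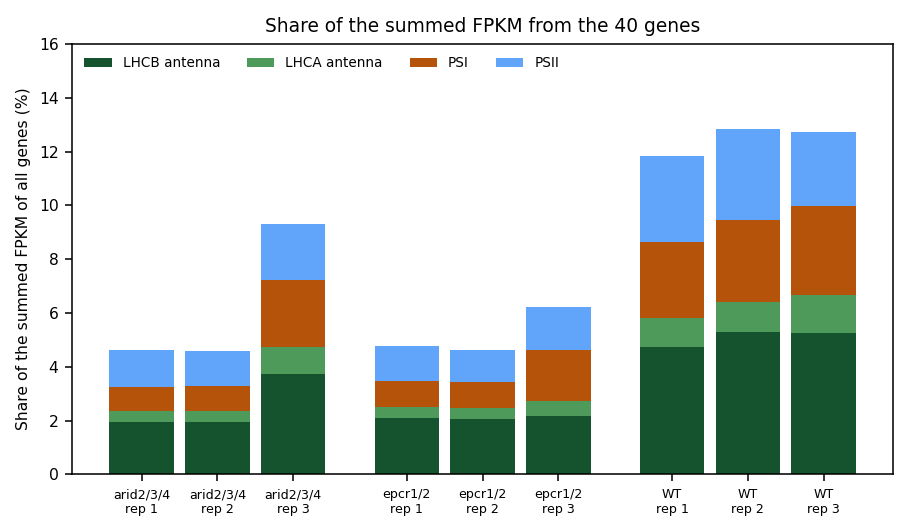
Share of the summed FPKM of all genes taken by the LHCB, LHCA, PSI and PSII genes in each of the 9 libraries, arid2/3/4, then epcr1/2, then WT. The bars total 4.60 to 9.32% in arid2/3/4, 4.64 to 6.22% in epcr1/2 and 11.8 to 12.8% in WT.

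Other highly expressed genes gave other values. Among the 183 other genes with a mean of 500 FPKM or more, 6.01% were called lower in arid2/3/4 and 8.74% in epcr1/2, and their median log2 fold changes were -0.05 in arid2/3/4 and 0.27 in epcr1/2.

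Among the antenna genes, 8 of 18 fell in arid2/3/4 and 11 of 18 in epcr1/2, beside 12.0% of all genes in arid2/3/4 and 17.8% in epcr1/2, and the others did not pass; the median log2 fold changes were -1.30 in arid2/3/4 and -1.42 in epcr1/2. Of the LHCB genes, 7 of 14 fell in each mutant, and of the LHCA genes 1 of 4 fell in arid2/3/4 and 4 of 4 in epcr1/2. With the block, 17 of 18 antenna genes passed as lower in arid2/3/4, beside 25.7% of all genes, and 15 of 18 in epcr1/2, beside 31.9%; with replicates 1 and 2 averaged, 0 passed in limma in arid2/3/4 (10 at an unadjusted p under 0.05), beside 5.77% of all genes, and 5 in epcr1/2, beside 14.8%.

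LHCB1 and LHCB2 form the major trimeric antenna of photosystem II, and LHCB1 is encoded by 5 genes here. LHCB1.3 (AT1G29930) had the highest WT mean of the 40 genes and ranked 2 among all genes in WT. It had 4177, 3841 and 7906 FPKM in arid2/3/4, 5073, 4523 and 5190.0 FPKM in epcr1/2, and 13896, 15789 and 11850.5 FPKM in WT. All mutant libraries lay below all WT libraries, with fold changes of -1.45 ± 0.48 (SE) in arid2/3/4, limma adjusted p = 0.0681, and -1.48 ± 0.48 in epcr1/2, limma adjusted p = 0.0519, which missed the threshold; it passed with the block in both mutants (SE 0.38). LHCB1.4 (AT2G34430) was much lower in level, at 136, 132 and 591 FPKM in arid2/3/4, 195, 178 and 389 FPKM in epcr1/2, and 789, 994 and 1253 FPKM in WT. Neither mutant overlapped WT, and it fell in arid2/3/4 (log2 change of -2.17 ± 0.59, limma adjusted p = 0.0366) and in epcr1/2 (log2 change of -2.06 ± 0.59, limma adjusted p = 0.0347); among the 40 genes this was the most negative value in arid2/3/4. LHCB1.5 (AT2G34420) stood at the other end in arid2/3/4, with 3638, 3361 and 4889 FPKM in arid2/3/4, 4284, 3774 and 3039.7 FPKM in epcr1/2, and 5012, 7154 and 6611 FPKM in WT. Its libraries did not overlap WT either, but the fold changes were -0.66 ± 0.39 in arid2/3/4 (limma adjusted p = 0.279) and -0.76 ± 0.39 in epcr1/2 (limma adjusted p = 0.194).

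LHCB1.2 (AT1G29910) was the gene in which the mutants lay furthest apart. It had 1223, 1075 and 2490.3 FPKM in arid2/3/4, 576, 509 and 757 FPKM in epcr1/2, and 3418, 3438 and 3886 FPKM in WT. All epcr1/2 libraries were below all arid2/3/4 libraries, and these below all WT libraries. It fell in epcr1/2 (log2 change of -2.56 ± 0.37, limma adjusted p = 0.00208), the most negative value there, and passed in all 20 alternatives. In arid2/3/4 it also fell (-1.27 ± 0.37, limma adjusted p = 0.0469) and passed in 9 of 20. Between the mutants, arid2/3/4 over epcr1/2, the log2 fold change was 1.29 ± 0.37, which missed the threshold (limma adjusted p = 0.0667) and passed with the block (SE 0.24). It was the only gene of the 40 whose mutant libraries did not overlap each other, beside 17.7% of all genes that were higher in arid2/3/4 in this way. LHCB1.1 (AT1G29920), which lies between LHCB1.2 and LHCB1.3 on chromosome 1, had 1283, 1162 and 2011 FPKM in arid2/3/4, 939.7, 822 and 1243 FPKM in epcr1/2, and 2803, 2964 and 4403 FPKM in WT, without overlap with WT. It fell in arid2/3/4 (log2 change of -1.20 ± 0.35, limma adjusted p = 0.0458) and in epcr1/2 (log2 change of -1.75 ± 0.35, limma adjusted p = 0.00816).

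LHCB2, whose phosphorylation takes part in state transitions, spanned much of the range of the 40 genes. LHCB2.3 (AT3G27690) had 121, 117 and 973 FPKM in arid2/3/4, 112, 109 and 552 FPKM in epcr1/2, and 479, 551 and 2150.0 FPKM in WT. Replicate 3 was the highest library of every genotype and the ranges of mutant and WT libraries overlapped. The fold changes were -1.78 ± 1.03 (SE) in arid2/3/4, limma adjusted p = 0.263, and -2.12 ± 1.03 in epcr1/2, limma adjusted p = 0.165; with the block the SE was 0.22 and both passed. LHCB2.1 (AT2G05100) had 709, 708 and 1214 FPKM in arid2/3/4, 1018, 1012 and 1181 FPKM in epcr1/2, and 958, 1206 and 2291 FPKM in WT, with overlapping groups. Its fold changes were -0.70 ± 0.39 in arid2/3/4 (limma adjusted p = 0.239) and -0.37 ± 0.39 in epcr1/2 (limma adjusted p = 0.527), the least negative of the 40 genes in epcr1/2. LHCB2.2 (AT2G05070), whose coding sequence is 96.6% identical to LHCB2.1, had 682, 631 and 1371 FPKM in arid2/3/4, 1056, 992 and 1315 FPKM in epcr1/2, and 1229, 1239 and 2519 FPKM in WT. The groups overlapped again, with fold changes of -0.90 ± 0.42 in arid2/3/4 (limma adjusted p = 0.166) and -0.49 ± 0.42 in epcr1/2 (limma adjusted p = 0.428); with the block, LHCB2.1 and LHCB2.2 passed in arid2/3/4 only, which does not show that the mutants differ. In the printed windows, LHCB2.1 holds an I-box core, an evening element core and CCAATC, and LHCB2.3 a G-box core and CCAATC.

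The minor antenna proteins LHCB4, LHCB5 and LHCB6 sit between the trimers and the photosystem II core. LHCB5 (AT4G10340) had 836, 768 and 1633 FPKM in arid2/3/4, 822, 811 and 982 FPKM in epcr1/2, and 3253, 3304 and 2735 FPKM in WT. No mutant library overlapped WT, and LHCB5 fell in arid2/3/4 (log2 change of -1.60 ± 0.34, limma adjusted p = 0.0146) and in epcr1/2 (log2 change of -1.83 ± 0.34, limma adjusted p = 0.00614). It passed in 15 of 20 alternatives in arid2/3/4, the most of the 40 genes there, and in 19 of 20 in epcr1/2. LHCB4.1 (AT5G01530) had 839.9, 781 and 1377 FPKM in arid2/3/4, 973, 883 and 1190.4 FPKM in epcr1/2, and 2776, 3057 and 1922 FPKM in WT. LHCB4.2 (AT3G08940) had 628, 545 and 1184 FPKM in arid2/3/4, 744, 715 and 933 FPKM in epcr1/2, and 1659.6, 1482 and 1814 FPKM in WT. Both fell in both mutants without overlap with WT. For LHCB4.1 the log2 fold changes were -1.39 ± 0.33, limma adjusted p = 0.0223, in arid2/3/4 and -1.33 ± 0.33, limma adjusted p = 0.0201, in epcr1/2; for LHCB4.2 they were -1.15 ± 0.33, limma adjusted p = 0.043, in arid2/3/4 and -1.05 ± 0.33, limma adjusted p = 0.0463, in epcr1/2. LHCB4.3 (AT2G40100) was the lowest of the 40 genes, with 30.5, 24.9 and 13.5 FPKM in arid2/3/4, 17.9, 17.4 and 20.4 FPKM in epcr1/2, and 100.2, 97.5 and 20.7 FPKM in WT. Here WT replicate 3 was down at the level of the mutants, unlike WT replicates 1 and 2, and the fold changes did not pass (-1.40 ± 0.58 in arid2/3/4, limma adjusted p = 0.127; -1.62 ± 0.58 in epcr1/2, limma adjusted p = 0.0711). LHCB6 (AT1G15820) fell in arid2/3/4 (log2 change of -1.33 ± 0.32, limma adjusted p = 0.0236) and in epcr1/2 (log2 change of -1.53 ± 0.32, limma adjusted p = 0.00989). LHCB3 (AT5G54270), a further trimer subunit, had fold changes of -0.99 ± 0.60 in arid2/3/4 and -1.13 ± 0.60 in epcr1/2 and passed in neither.

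The LHCA proteins form a belt on the side of photosystem I. The 4 genes averaged 937 to 1422 FPKM in arid2/3/4, 897 to 1309 FPKM in epcr1/2 and 2262 to 3242 FPKM in WT. LHCA1 (AT3G54890) had 719, 708 and 2561 FPKM in arid2/3/4, 677, 653 and 1415 FPKM in epcr1/2, and 2375, 2658 and 4692 FPKM in WT. Replicate 3 was high in every genotype, and the epcr1/2 libraries lay below all WT libraries while arid2/3/4 replicate 3 did not. LHCA1 fell in epcr1/2 (log2 change of -1.85 ± 0.59, limma adjusted p = 0.0492), and its value in arid2/3/4 was -1.50 ± 0.59 (limma adjusted p = 0.112). LHCA2 (AT3G61470) fell in both mutants, in arid2/3/4 (log2 change of -1.36 ± 0.36, limma adjusted p = 0.032) and in epcr1/2 (-1.35 ± 0.36, limma adjusted p = 0.0254). LHCA3 (AT1G61520) and LHCA4 (AT3G47470) fell in epcr1/2, with log2 fold changes of -1.35 ± 0.43, limma adjusted p = 0.0496, and -1.19 ± 0.36, limma adjusted p = 0.0433; in arid2/3/4 their values were -1.22 ± 0.43 and -1.15 ± 0.36 and did not pass. None of the 4 LHCA genes passed between the mutants, where their log2 fold changes were -0.01 to 0.35.

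**Figure D4:**
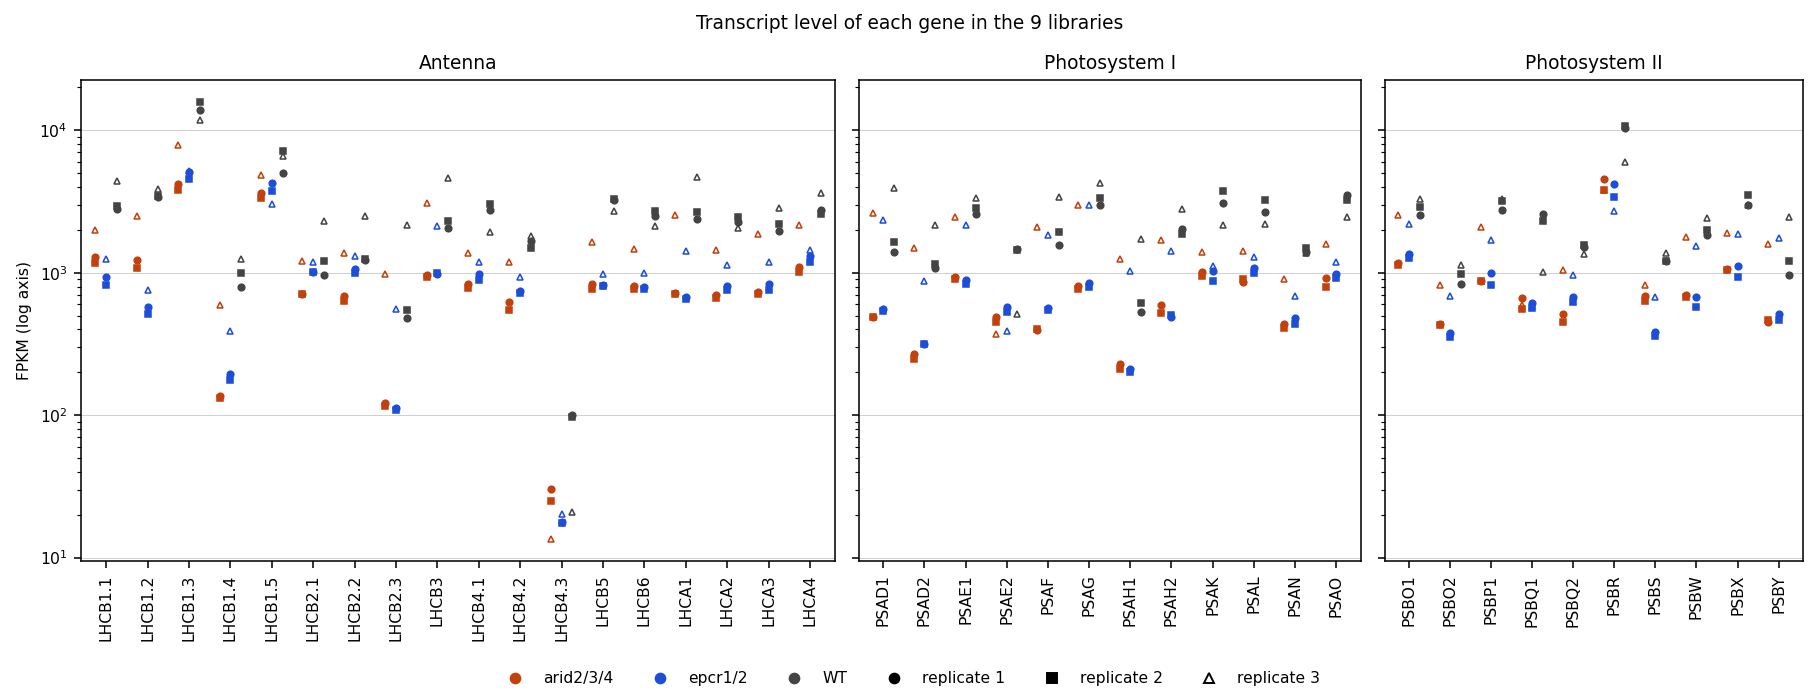
FPKM of each gene in the 9 libraries on a log axis, in panels for antenna, PSI and PSII genes; colours mark arid2/3/4, epcr1/2 and WT from left to right within a gene, and symbols the replicate number. Mean levels ran from 23.0 FPKM (LHCB4.3) to 5308 FPKM (LHCB1.3) in arid2/3/4, from 18.6 to 4929 FPKM in epcr1/2 and from 72.8 to 13845 FPKM in WT for the same genes.

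Of the 12 PSI genes, 4 fell in each mutant, PSAK (AT1G30380), PSAL (AT4G12800), PSAN (AT5G64040) and PSAO, beside 12.0% of all genes in arid2/3/4 and 17.8% in epcr1/2, and the other 8 did not pass; the medians were -1.40 in arid2/3/4 and -1.41 in epcr1/2. With the block, 12 of 12 passed as lower in both mutants, beside 25.7% of all genes in arid2/3/4 and 31.9% in epcr1/2. With replicates 1 and 2 averaged, 0 passed in limma in either, beside 5.77% of all genes called lower in arid2/3/4 and 14.8% in epcr1/2. At an unadjusted p under 0.05, that fit had 10 in arid2/3/4 and 9 in epcr1/2. PSAO (AT1G08380), a small subunit near the site where antenna docks in state transitions, had 918, 796 and 1581 FPKM in arid2/3/4, 984, 923 and 1181 FPKM in epcr1/2, and 3509, 3232 and 2459 FPKM in WT. Mutant and WT libraries did not overlap, and PSAO fell in arid2/3/4 (log2 change of -1.53 ± 0.34, limma adjusted p = 0.0169) and in epcr1/2 (log2 change of -1.57 ± 0.34, limma adjusted p = 0.0111). PSAK, PSAL and PSAN, also peripheral subunits, fell in arid2/3/4 with log2 fold changes of -1.41 ± 0.32, limma adjusted p = 0.0178, -1.36 ± 0.32, limma adjusted p = 0.0194, and -1.38 ± 0.35, limma adjusted p = 0.0268. In epcr1/2 their values were -1.56 ± 0.32, limma adjusted p = 0.00851, -1.26 ± 0.32, limma adjusted p = 0.0197, and -1.44 ± 0.35, limma adjusted p = 0.0176.

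The stroma-side subunit PSAD, which binds ferredoxin, and PSAF (AT1G31330), which binds plastocyanin, had wide spreads, with replicate 3 far above the other libraries. PSAD1 (AT4G02770) had 488, 486 and 2607 FPKM in arid2/3/4, 559.9, 539.5 and 2343 FPKM in epcr1/2, and 1409.8, 1645 and 3934 FPKM in WT. PSAD2 (AT1G03130) had 269.9, 247 and 1497 FPKM in arid2/3/4, 316, 317 and 882 FPKM in epcr1/2, and 1086, 1161 and 2149 FPKM in WT. PSAF had 399, 406 and 2089.9 FPKM in arid2/3/4, 564, 549.8 and 1844 FPKM in epcr1/2, and 1571, 1919 and 3416 FPKM in WT. In all 3 genes replicate 3 was the highest library of its genotype, and at each replicate number both mutants were below WT. The log2 fold changes were -1.29 ± 0.85, -1.58 ± 0.74 and -1.64 ± 0.76 in arid2/3/4 and -1.23 ± 0.85, -1.64 ± 0.74 and -1.39 ± 0.76 in epcr1/2, with limma adjusted p of 0.14 to 0.325; all passed with the block, where the SE was 0.25, 0.33 and 0.30.

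PSAG (AT1G55670), the PSI gene with the highest WT mean, had 801, 763 and 2995 FPKM in arid2/3/4, 846, 798 and 2981 FPKM in epcr1/2, and 2997, 3333 and 4250.0 FPKM in WT. Replicate 3 of each mutant was just under WT replicate 1, so the ranges did not overlap, with fold changes of -1.51 ± 0.69 in arid2/3/4 (limma adjusted p = 0.158) and -1.47 ± 0.69 in epcr1/2 (limma adjusted p = 0.151). PSAH1 (AT3G16140), the PSI gene with the lowest WT mean, had 227, 211 and 1242 FPKM in arid2/3/4, 209.6, 202 and 1035 FPKM in epcr1/2, and 529, 613 and 1728 FPKM in WT, and PSAH2 (AT1G52230), the other gene of this subunit, had 593, 524 and 1703 FPKM in arid2/3/4, 491, 506 and 1432 FPKM in epcr1/2, and 2028, 1880.2 and 2804 FPKM in WT. Mutant and WT libraries overlapped for PSAH1 and did not for PSAH2. The log2 fold change of PSAH1 was -1.08 ± 0.90 in arid2/3/4 and -1.22 ± 0.90 in epcr1/2, and that of PSAH2 was -1.44 ± 0.57 in arid2/3/4 and -1.64 ± 0.57 in epcr1/2; neither passed (limma adjusted p of 0.0675 to 0.45).

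The PSAE genes, for another stroma-side subunit, had opposite differences between replicate 3 and the other libraries in every genotype. PSAE1 (AT4G28750) had 941, 904 and 2479.9 FPKM in arid2/3/4, 896, 837 and 2152 FPKM in epcr1/2, and 2568, 2850.2 and 3376 FPKM in WT. PSAE2 (AT2G20260) had 492, 453 and 373 FPKM in arid2/3/4, 575, 533 and 387 FPKM in epcr1/2, and 1471, 1444 and 509.6 FPKM in WT. Replicate 3 was the highest library of its genotype for PSAE1 and the lowest for PSAE2; PSAE2 in epcr1/2 overlapped WT through WT replicate 3, and the other ranges did not. Fold changes of PSAE1 were -1.18 ± 0.52 in arid2/3/4 (limma adjusted p = 0.147) and -1.31 ± 0.52 in epcr1/2 (limma adjusted p = 0.098), and those of PSAE2 were -1.23 ± 0.42 in arid2/3/4 (limma adjusted p = 0.0754) and -1.06 ± 0.42 in epcr1/2 (limma adjusted p = 0.0983). The printed PSAE2 window holds a G-box core 63 bases before the gene start, and that of PSAE1 none of the capitalised motifs.

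Of the 10 PSII genes, 3 fell in arid2/3/4 (PSBQ1, PSBQ2 and PSBX) and 5 in epcr1/2 (PSBP1, PSBQ1, PSBR, PSBS and PSBX), beside 12.0% of all genes in arid2/3/4 and 17.8% in epcr1/2, with medians of -1.13 in arid2/3/4 and -1.32 in epcr1/2. With the block, 10 of 10 passed as lower in each, beside 25.7% of all genes in arid2/3/4 and 31.9% in epcr1/2. With replicates 1 and 2 averaged, 0 passed in limma in arid2/3/4 (3 at an unadjusted p under 0.05), beside 5.77% of all genes called lower. In epcr1/2, 1 passed in that fit, a share below the 14.8% of all genes. PSBO, PSBP and PSBQ are the extrinsic proteins that stabilise the water-oxidising cluster. PSBQ1 (AT4G21280) had 667, 560.3 and 594 FPKM in arid2/3/4, 609.9, 563 and 583 FPKM in epcr1/2, and 2595, 2309 and 1004 FPKM in WT. The mutant libraries were nearly level and did not overlap WT, where replicate 3 was the lowest. PSBQ1 fell in arid2/3/4 (log2 change of -1.58 ± 0.36, limma adjusted p = 0.0191) and in epcr1/2 (log2 change of -1.64 ± 0.36, limma adjusted p = 0.0123), the most negative PSII values in both. PSBQ2 (AT4G05180) had 509.7, 454 and 1039 FPKM in arid2/3/4, 673, 623 and 966 FPKM in epcr1/2, and 1528, 1577 and 1354 FPKM in WT, also without overlap. It fell in arid2/3/4 (log2 change of -1.25 ± 0.36, limma adjusted p = 0.042), and its value in epcr1/2 was -1.003 ± 0.36 (limma adjusted p = 0.0703). PSBP1 (AT1G06680) had 882, 882 and 2112 FPKM in arid2/3/4, 994, 818 and 1692 FPKM in epcr1/2, and 2759.5, 3171 and 3271 FPKM in WT, without overlap with WT. It fell in epcr1/2 (log2 change of -1.46 ± 0.44, limma adjusted p = 0.041), with -1.37 ± 0.44 in arid2/3/4 (limma adjusted p = 0.0621).

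The PSBO genes had some of the least negative PSII values. PSBO1 (AT5G66570) had 1162, 1131 and 2533 FPKM in arid2/3/4, 1354, 1266 and 2199 FPKM in epcr1/2, and 2526, 2879 and 3289.6 FPKM in WT. PSBO2 (AT3G50820), the PSII gene with the lowest WT mean, had 439, 431 and 823 FPKM in arid2/3/4, 378, 352 and 690.4 FPKM in epcr1/2, and 828, 975 and 1139 FPKM in WT. PSBO1 overlapped WT in arid2/3/4 by a small margin, and the other ranges did not overlap. For PSBO1 the fold changes were -0.95 ± 0.42, limma adjusted p = 0.145, in arid2/3/4 and -0.89 ± 0.42, limma adjusted p = 0.152, in epcr1/2; for PSBO2 they were -0.85 ± 0.36, limma adjusted p = 0.136, in arid2/3/4 and -1.11 ± 0.36, limma adjusted p = 0.0544, in epcr1/2.

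PSBS (AT1G44575), the sensor of lumen acidity needed for fast energy-dependent quenching, had 685, 631 and 819 FPKM in arid2/3/4, 381, 358 and 679 FPKM in epcr1/2, and 1215, 1217 and 1371 FPKM in WT. WT stood above both mutants, and epcr1/2 replicates 1 and 2 were below every arid2/3/4 library. PSBS fell in epcr1/2 (log2 change of -1.48 ± 0.29, limma adjusted p = 0.00729) and passed in all 20 alternatives, as did LHCB1.1 and LHCB1.2 and none of the others. Its value in arid2/3/4 was -0.84 ± 0.29 (limma adjusted p = 0.0775), and between the mutants 0.64 ± 0.29 (limma adjusted p = 0.214), which passed with the block (SE 0.19). PSBR (AT1G79040), a small subunit that helps the extrinsic proteins assemble and the PSII gene with the highest WT mean, had 4579.9, 3797 and 3803 FPKM in arid2/3/4, 4186, 3398 and 2715 FPKM in epcr1/2, and 10379, 10812 and 5956 FPKM in WT. Replicate 3 of WT was lower than the other WT libraries but above all mutant libraries. PSBR fell in epcr1/2 (log2 change of -1.37 ± 0.43, limma adjusted p = 0.0472), with -1.11 ± 0.43 in arid2/3/4 (limma adjusted p = 0.108). PSBX (AT2G06520) had 1058, 1044 and 1889 FPKM in arid2/3/4, 1113, 928 and 1879 FPKM in epcr1/2, and 2967, 3528 and 2986 FPKM in WT, and fell in both mutants without overlap, in arid2/3/4 (log2 change of -1.30 ± 0.39, limma adjusted p = 0.0473) and in epcr1/2 (-1.33 ± 0.39, limma adjusted p = 0.0341). PSBW (AT2G30570) and PSBY (AT1G67740), small membrane subunits, had fold changes of -1.14 ± 0.51 and -1.03 ± 0.70 in arid2/3/4 and -1.30 ± 0.51 and -0.91 ± 0.70 in epcr1/2 and did not pass.

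Replicate 3 had its own pattern across these genes. It was above the mean of replicates 1 and 2 for 36 of 40 genes in arid2/3/4, 36 of 40 in epcr1/2 and 25 of 40 in WT, with median log2 differences of 1.07 in arid2/3/4, 0.58 in epcr1/2 and 0.25 in WT. For 24 genes it was higher in all genotypes, and for PSAE2, PSBQ1 and PSBR lower in all. In LHCB2.3 the difference was 3.02 in arid2/3/4, 2.31 in epcr1/2 and 2.06 in WT.

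Shares within a subunit compare paralogues inside a library and do not depend on how libraries are scaled against each other. Of the summed FPKM of the LHCB1 genes, LHCB1.5 gave 34.8, 35.1 and 27.3% in arid2/3/4, 38.7, 38.5 and 28.6% in epcr1/2, and 19.3, 23.6 and 23.6% in WT, so every mutant library was above every WT library. LHCB1.2 gave 11.7, 11.2 and 13.9% in arid2/3/4, 5.21, 5.20 and 7.13% in epcr1/2, and 13.2, 11.3 and 13.9% in WT, lower in epcr1/2 than in every other library. Of LHCB2, LHCB2.3 gave 8.03, 8.02 and 27.4% in arid2/3/4, 5.14, 5.18 and 18.1% in epcr1/2, and 17.9, 18.4 and 30.9% in WT, with replicate 3 the highest in each genotype. Of PSAE, PSAE2 gave 34.4, 33.4 and 13.1% in arid2/3/4, 39.1, 38.9 and 15.2% in epcr1/2, and 36.4, 33.6 and 13.1% in WT, so replicate 3 was low in all genotypes and the genotypes overlapped. Of PSBQ, PSBQ1 gave 56.7, 55.2 and 36.4% in arid2/3/4, 47.5, 47.5 and 37.6% in epcr1/2, and 62.9, 59.4 and 42.6% in WT, with replicate 3 the lowest in each genotype. LHCB4.3 stayed at or below 2.21% of LHCB4 in all 9 libraries, and PSBO1 gave 72.4 to 78.3% of PSBO.

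Near-identical genes may share reads, which limits these shares. The coding sequences of LHCB1.1, LHCB1.2 and LHCB1.3 are 95.6 to 96.4% identical, with identical runs of 74 to 119 bases; LHCB1.4 and LHCB1.5 are 91.4% identical, and LHCB2.1 and LHCB2.2 share a run of 152 bases. LHCB2.3 is 75.4 to 76.4% identical to the other LHCB2 genes, and PSAE1 to PSAE2 77.3%. Alignment gaps count as mismatches in these values, and the LHCB2.3 coding sequence has 897 bases against 798 in LHCB2.1 and LHCB2.2. How reads matching several genes were assigned is not given in the sources used here.

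**Figure D5:**
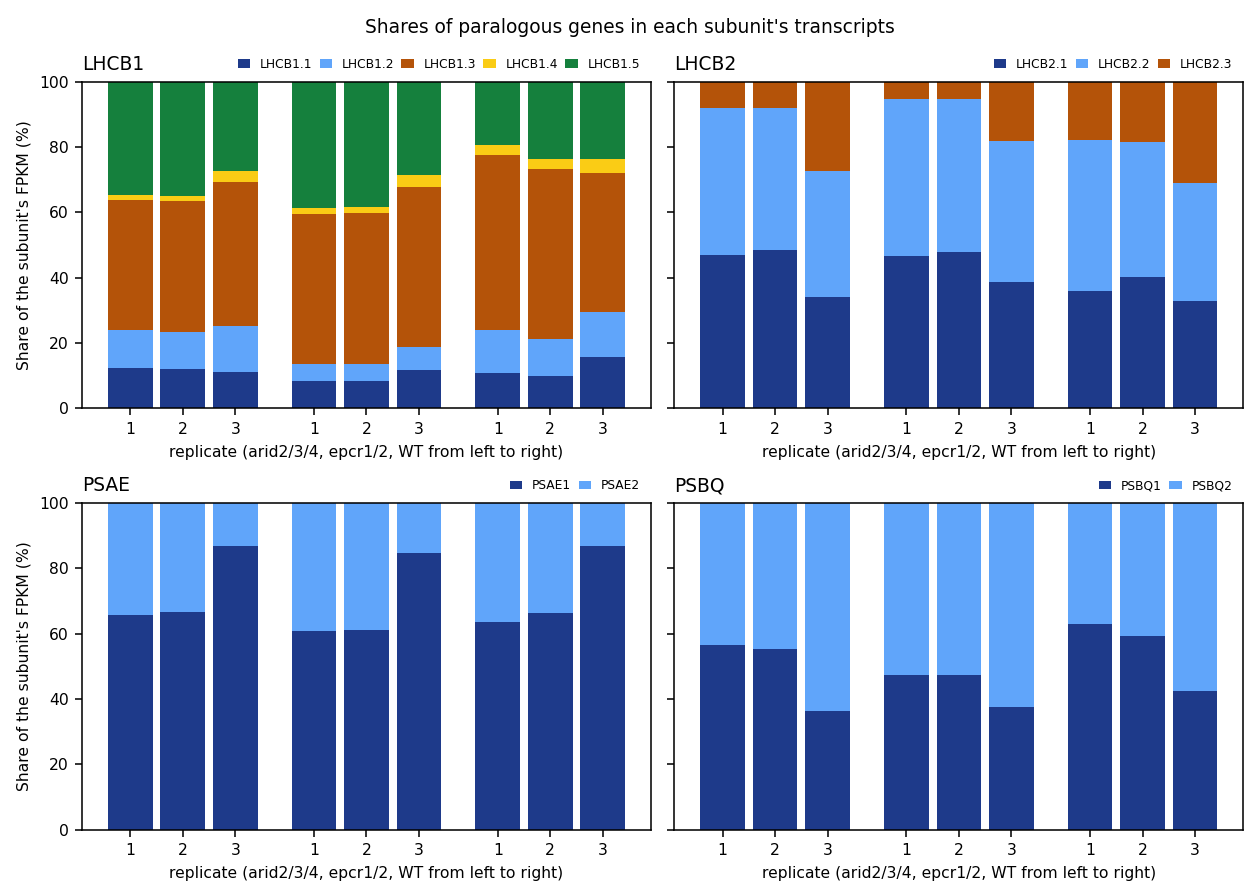
Share of each subunit's summed FPKM from its paralogous genes in the 9 libraries, for LHCB1, LHCB2, PSAE and PSBQ, with arid2/3/4, epcr1/2 and WT from left to right. LHCB1.5 takes 27.3 to 38.7% of LHCB1 in the mutants and 19.3 to 23.6% in WT, and PSAE2 is at 13.1 to 15.2% of PSAE in replicate 3 and 33.4 to 39.1% elsewhere.

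Other genes of the same pathways were listed too, and their counts are to be read beside the 12.0% of all tested genes called lower in arid2/3/4 and the 17.8% in epcr1/2. Of 14 other photosystem and antenna-family genes, 2 fell in arid2/3/4, a share near that of all genes, and 8 fell in epcr1/2; none rose. PPL1, a PsbP-like protein, had 28.2, 28.9 and 79.8 FPKM in arid2/3/4, 16.1, 15.7 and 58.5 FPKM in epcr1/2, and 149, 142 and 156 FPKM in WT, and fell in arid2/3/4 (log2 change of -1.86 ± 0.56, limma adjusted p = 0.0497) and in epcr1/2 (-2.54 ± 0.56, limma adjusted p = 0.0115). LHCA6, which links photosystem I to the NDH complex, had 31.0, 33.9 and 93.6 FPKM in arid2/3/4, 9.01, 7.58 and 42.8 FPKM in epcr1/2, and 114, 125 and 153 FPKM in WT. Every epcr1/2 library was below every WT library, and LHCA6 fell there (-3.07 ± 0.65, limma adjusted p = 0.00996). Of 15 electron transport and ATP synthase genes, 4 fell in each mutant and none rose. LFNR2, a ferredoxin-NADP reductase, had 72.6, 66.1 and 177 FPKM in arid2/3/4, 34.2, 32.6 and 112 FPKM in epcr1/2, and 509.6, 488 and 259 FPKM in WT, and fell in arid2/3/4 (log2 change of -2.07 ± 0.57, limma adjusted p = 0.0376) and in epcr1/2 (-2.97 ± 0.57, limma adjusted p = 0.00681). Of 8 genes for antenna insertion and phosphorylation, 2 fell in arid2/3/4 and 7 in epcr1/2; FFC, the chloroplast SRP54 subunit that carries antenna proteins, fell in arid2/3/4 (log2 change of -1.27 ± 0.30, limma adjusted p = 0.021) and in epcr1/2 (-1.58 ± 0.30, limma adjusted p = 0.0065). The median log2 fold changes of these 3 lists were -0.85, -1.11 and -0.94 in arid2/3/4 and -1.42, -1.06 and -1.33 in epcr1/2. With the replicate block, 10, 12 and 6 genes of these lists passed as lower in arid2/3/4 and 11, 11 and 8 in epcr1/2, beside 25.7% of all genes in arid2/3/4 and 31.9% in epcr1/2. With replicates 1 and 2 averaged, 0 of each list passed in limma in arid2/3/4 (7, 6 and 6 at an unadjusted p under 0.05), beside 5.77% of all genes called lower. In epcr1/2, 8, 2 and 6 passed as lower in that fit, beside 14.8% of all genes. The 2 of 15 electron transport and ATP synthase genes were a share near that of all genes. LFNR2 was not among these 2 (limma adjusted p = 0.0651).

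Among 18 regulators of photosynthesis genes, 1 rose and 2 fell in arid2/3/4, and 2 rose and 5 fell in epcr1/2. Of all tested genes, 8.78% were called higher and 12.0% lower in arid2/3/4, and 10.8% higher and 17.8% lower in epcr1/2. Both counts in arid2/3/4 and the count of higher genes in epcr1/2 were near or below these shares. With the replicate block 6 of these regulators passed as lower and 2 as higher in arid2/3/4, beside 25.7% of all genes lower and 19.4% higher. In epcr1/2 it was 8 as lower and 2 as higher, beside 31.9% and 19.3%. With replicates 1 and 2 averaged, only GNC passed in arid2/3/4, as lower (limma adjusted p = 0.049), a share near the 5.77% of all genes. GLK2, GUN1 and PIF3 did not pass there (limma adjusted p = 0.124, 0.0681 and 0.0612). In epcr1/2, 6 passed as lower in that fit, beside 14.8% of all genes, and 2 as higher, beside 7.92%. GLK2, a transcription factor that activates antenna genes, had 44.9, 40.3 and 73.8 FPKM in arid2/3/4, 34.4, 32.2 and 24.7 FPKM in epcr1/2, and 94.5, 89.7 and 141 FPKM in WT. No mutant library overlapped WT, and GLK2 fell in arid2/3/4 (log2 change of -1.04 ± 0.28, limma adjusted p = 0.0328) and in epcr1/2 (-1.78 ± 0.28, limma adjusted p = 0.00272). GLK1, its paralogue, had 102, 98.6 and 171 FPKM in arid2/3/4, 102, 93.7 and 75.1 FPKM in epcr1/2, and 123, 123 and 127 FPKM in WT, overlapping WT in arid2/3/4 and not in epcr1/2, and did not pass (limma adjusted p = 0.914 in arid2/3/4 and 0.174 in epcr1/2). GUN1, a plastid protein of chloroplast-to-nucleus signalling, fell in arid2/3/4 (log2 change of -0.83 ± 0.17, limma adjusted p = 0.0123) and in epcr1/2 (-0.96 ± 0.17, limma adjusted p = 0.0047). PIF3, a bHLH factor that represses greening in the dark, rose in arid2/3/4 (log2 change of 0.66 ± 0.11, limma adjusted p = 0.00641) and in epcr1/2 (0.85 ± 0.11, limma adjusted p = 0.00142). GNC, a GATA factor of greening, had the most negative value of the list in epcr1/2, where it fell (-2.15 ± 0.49, limma adjusted p = 0.0134).

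Several clock genes differed between replicate 3 and the other libraries, and the part of this in the antenna and photosystem values was not tested. Of 11 clock genes, LHY rose and ELF3 fell in both mutants, and the others did not pass; these counts are near or below the shares among all genes (8.78% of all genes higher and 12.0% lower in arid2/3/4, 10.8% higher and 17.8% lower in epcr1/2). With the replicate block 3 passed as lower in each mutant, beside 25.7% of all genes in arid2/3/4 and 31.9% in epcr1/2, and 2 as higher in arid2/3/4, beside 19.4%, and 1 in epcr1/2, beside 19.3%. With replicates 1 and 2 averaged, 0 passed in limma in either mutant, LHY and ELF3 included. Of all genes, that fit called 5.77% lower and 3.69% higher in arid2/3/4, and 14.8% lower and 7.92% higher in epcr1/2. At an unadjusted p under 0.05 it was 1 clock gene in arid2/3/4 and 0 in epcr1/2. LHY, a morning factor, had 146.93, 143.76 and 78.15 FPKM in arid2/3/4, 77.89, 82.12 and 87.66 FPKM in epcr1/2, and 40.01, 32.49 and 58.73 FPKM in WT, and rose in arid2/3/4 (log2 change of 1.46 ± 0.29, limma adjusted p = 0.0116) and in epcr1/2 (0.94 ± 0.29, limma adjusted p = 0.0452). ELF3, an evening factor, had 3.97, 3.84 and 6.73 FPKM in arid2/3/4, 4.99, 5.21 and 7.93 FPKM in epcr1/2, and 19.8, 18.6 and 8.60 FPKM in WT, and fell in arid2/3/4 (log2 change of -1.47 ± 0.34, limma adjusted p = 0.0201) and in epcr1/2 (-1.19 ± 0.34, limma adjusted p = 0.0342). CCA1, the partner of LHY, had 70.8, 66.3 and 44.3 FPKM in arid2/3/4, 37.4, 34.8 and 28.8 FPKM in epcr1/2, and 27.3, 25.6 and 82.4 FPKM in WT. In WT it was highest in replicate 3, and in both mutants lowest there; it did not pass in either mutant. TOC1, an evening gene, had 7.34, 7.44 and 10.9 FPKM in arid2/3/4, 9.02, 9.57 and 9.78 FPKM in epcr1/2, and 31.3, 26.6 and 8.89 FPKM in WT, so WT replicates 1 and 2 were above all other libraries, and it did not pass (limma adjusted p = 0.0895 in arid2/3/4 and 0.114 in epcr1/2). The hour of harvest is not given in the sources used here.

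Markers of organs and stages also differed in level between the genotypes, and their part in the result was not tested. Of 11 shoot markers outside photosynthesis, 6 fell in each mutant, beside 12.0% of all genes in arid2/3/4 and 17.8% in epcr1/2; with the replicate block it was 9 in arid2/3/4, beside 25.7%, and 8 in epcr1/2, beside 31.9%. Their summed FPKM was 66.2 to 128 in arid2/3/4, 80.5 to 129 in epcr1/2 and 150 to 235 in WT. TMM, a receptor of the stomatal lineage, fell in arid2/3/4 (log2 change of -2.32 ± 0.14, limma adjusted p = 0.000132) and in epcr1/2 (-3.09 ± 0.14, limma adjusted p = 3.28e-05). The leaf patterning genes FIL, YAB3, KAN1, AS1 and AS2 did not pass in the main fit. With replicates 1 and 2 averaged, 7 of 11 shoot markers passed as lower in arid2/3/4, beside 5.77% of all genes, and 8 in epcr1/2, beside 14.8%. FIL was among them in both mutants (limma adjusted p = 0.0321 in arid2/3/4 and 0.0282 in epcr1/2), and YAB3 in epcr1/2 (limma adjusted p = 0.0291). Of 13 root markers tested of 15 listed, 9 fell in arid2/3/4, beside 12.0% of all genes, and 10 fell and 2 rose in epcr1/2, beside 17.8% called lower and 10.8% called higher; their summed FPKM was 25.3 to 34.5 in arid2/3/4, 25.2 to 27.3 in epcr1/2 and 84.7 to 110 in WT. TIP2;3, a vacuolar aquaporin, fell in arid2/3/4 (log2 change of -2.38 ± 0.33, limma adjusted p = 0.00255), and IRT1, a root iron transporter, fell in epcr1/2 (-3.39 ± 0.41, limma adjusted p = 0.000923). With replicates 1 and 2 averaged, 7 of 13 root markers passed as lower in arid2/3/4, beside 5.77% of all genes. In epcr1/2, 9 passed as lower in that fit, beside 14.8%, and 1 as higher, beside 7.92%. The root marker that passed as higher was NRT2.1 (log2 change of 1.55 ± 0.35, limma adjusted p = 0.0436). WOX5 was also above WT in epcr1/2 in that fit but did not pass (1.07 ± 0.27, limma adjusted p = 0.0519). MYB36 passed in neither mutant there, at -0.13 in arid2/3/4 and -0.14 in epcr1/2. The summed level of each of these lists was lower in every mutant library than in every WT library. Of 10 seed markers, 7 rose in arid2/3/4, beside 8.78% of all genes, and 8 in epcr1/2, beside 10.8%; with replicates 1 and 2 averaged, 3 passed as higher in arid2/3/4, beside 3.69%, and 5 in epcr1/2, beside 7.92%. Their summed FPKM was 1238, 1151 and 59.0 in arid2/3/4, 529, 454 and 225 in epcr1/2, and 2.04, 2.42 and 1.98 in WT. In each mutant their sum was higher in replicates 1 and 2 than in replicate 3, while the share of the 40 genes was lower in replicates 1 and 2. SESA1 and SESA2 encode seed storage albumins. SESA2 rose in arid2/3/4 (log2 change of 5.44 ± 1.61, limma adjusted p = 0.0474), and SESA1 in epcr1/2 (5.66 ± 1.66, limma adjusted p = 0.0365). With replicates 1 and 2 averaged, these did not pass (limma adjusted p = 0.164 for SESA2 in arid2/3/4 and 0.0867 for SESA1 in epcr1/2). The seed markers EM1, EM6 and OLEO2 passed in that fit in both mutants, and CRA1 and OLEO1 in epcr1/2 alone. CASP5 and PLT1 were below the filter and not tested; none of the root, shoot or seed markers was at 0 in all 3 libraries of a genotype.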

How the data were processed

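Messenger RNA was sequenced from 9 libraries of 10-day-old seedlings, and the authors deposited 1 table of 28117 genes by 9 libraries. Per the submitters' processing notes, STAR 2.5.2b, Cuffdiff and TAIR10 were used. No unit is named in the table header. The authors' deposited values were taken to be FPKM because they are decimals whose column sums differ and Cuffdiff writes FPKM; they carry no counts, so no counting interval is given. Depth was estimated roughly from the size of the smallest steps.

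The 21168 genes that reached 0.5 FPKM in 3 or more libraries were analysed as log2(FPKM + 1) in limma 3.58.1 (R 4.3.3) with a mean per genotype over all 9 libraries and empirical Bayes with a trend. Two-sided p-values received Benjamini-Hochberg adjustment across the whole tested table, with a threshold of 0.05. The pseudocount of 1 FPKM understates the change of low genes such as LHCB4.3. Shares and paralogue fractions were described without a test. The fit was tested on simulated data.

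The genotypes share replicate numbers. Deviations from genotype means had correlations of 0.63 to 0.84 for equal numbers, over the 0.1 set as the minimum, and the block was therefore run too. Between genotypes, numbers 1 and 2 had 0.66 to 0.76, and number 3 against the others -0.82 to -0.68. The 20 alternatives varied the pseudocount (0.1, 5), the filter (none, 2 FPKM), scaling, block, samples, weights and each library.

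Values in every library are given for the 3 most negative genes and the least negative gene per group and mutant, the highest and lowest WT means and most paralogues. Of each other list, the largest passing change is given, for several genes as a fold change without the values of each library. The genes and lists were chosen with earlier results of these data known. Gene models, promoter windows and coding sequences came from RefSeq TAIR10.1 (26915 genes of the table matched by identifier).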

Additional observations from a re-analysis of the deposited data

How the results depend on the processing

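The direction of the 40 genes held in every alternative, and the counts of calls did not. Single values were counted for each of the 40 genes in each of the 20 alternatives, which share libraries, so the counts are not numbers of genes. Of these values, 578 in arid2/3/4 kept their side of the threshold, 96 newly passed and 126 no longer passed. In epcr1/2 the numbers were 624, 71 and 105, and none reversed. With the replicate block, the number of the 40 genes called lower was 39 in arid2/3/4 and 37 in epcr1/2, 2 differed between the mutants, and all-gene calls were 9545 in arid2/3/4, 10832 in epcr1/2 and 6039 between the mutants. Within replicates 1 and 2 only, in the same order of comparisons, these were 39, 37 and 10 of the 40, and 13671, 13755 and 11396 of all genes. With replicates 1 and 2 averaged and a replicate block they were 0 and 6 of the 40, 2003 of all genes in arid2/3/4 and 49 between the mutants. That fit has fewer samples. Of all genes, it called 5.77% lower in arid2/3/4 and 14.8% in epcr1/2, so the 6 of 40 were near the share of all genes. Array weights gave 40, 38 and 7 of the 40, and 13934, 14648 and 12518 of all genes. The weights were 0.085 to 0.128 for the libraries numbered 3 and 1.8 to 7.039 for those numbered 1 or 2. That fit therefore rested mostly on replicates 1 and 2. Without a filter, 7 and 12 of the 40 passed, and 4577 and 6157 of the 25725 genes tested. Quantile normalization gave 8 in arid2/3/4, beside 4702 of all genes, and 1 between the mutants (LHCB1.2), beside 2570. With only the compared groups in the fit, 1 passed in arid2/3/4 (LHCB5), beside 3290 of all genes, and 1477 of all genes passed between the mutants. The cause of these differences was not tested. Leaving out 1 library gave 0 to 31 of the 40 in arid2/3/4, 7 to 27 in epcr1/2 and 0 to 1 between the mutants, and 2169 to 7064, 3708 to 7575 and 834 to 3284 of all genes; where a library is left out, the spread is pooled over the genotypes. Main counts were 15, 20 and 0 of the 40, and 4399, 6039 and 2218 of all genes.

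Median centring moved the all-gene median in epcr1/2 from -0.12 to 0.06 and the share of calls that were higher from 37.7% to 50.7%. The median of the 40 genes was then -1.18, and 16 passed as lower, beside 3121 of all 21168 genes. Between the mutants the share of calls that were higher moved from 54.5% to 39.9%, and with quantile normalization to 42.8%. The sizes of the fold changes depended on replicate 3 as well: leaving out 1 library moved the fold of 10 genes by over 1.5 times in arid2/3/4 and of 6 in epcr1/2. The share of summed FPKM was also computed without replicate 3 of each genotype, a choice made after seeing the data. It was then 4.61% in arid2/3/4, 4.70% in epcr1/2 and 12.3% in WT. Depth is known only roughly, replicates 1 and 2 may not be independent samples, and reads of near-identical LHCB1 and LHCB2 genes may be split.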

Other observations

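ELIP1, an early light-induced protein of the antenna family, had 348, 341 and 16.2 FPKM in arid2/3/4, 87.2, 73.1 and 43.8 FPKM in epcr1/2, and 16.8, 17.9 and 16.0 FPKM in WT. Replicates 1 and 2 of arid2/3/4 stood above all WT libraries, while arid2/3/4 replicate 3 was within the WT range. All epcr1/2 libraries stood above all WT libraries. ELIP2 had 34.5, 37.1 and 5.80 FPKM in arid2/3/4, 15.0, 15.0 and 9.82 FPKM in epcr1/2, and 5.39, 5.25 and 6.66 FPKM in WT. For ELIP2 too, all epcr1/2 libraries stood above all WT libraries, and arid2/3/4 replicate 3 was within the WT range. Neither passed (ELIP1 limma adjusted p = 0.0926 in arid2/3/4 and 0.218 in epcr1/2; ELIP2 limma adjusted p = 0.0918 in arid2/3/4 and 0.231 in epcr1/2). Both passed as higher in arid2/3/4 with the replicate block, and neither did with replicates 1 and 2 averaged (limma adjusted p = 0.239 for ELIP1 and 0.28 for ELIP2); at replicate number 3 the log2 ratio of arid2/3/4 to WT was 0.02 for ELIP1 and -0.171 for ELIP2.

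Of 7 senescence and chlorophyll breakdown genes tested, limma called 0 in arid2/3/4 (3 as higher at an unadjusted p under 0.05), and 1 higher and 1 lower in epcr1/2, beside 10.8% of all genes higher and 17.8% lower there. With the replicate block 4 passed as higher in arid2/3/4, beside 19.4% of all genes, and with replicates 1 and 2 averaged 0 did in limma (3 at an unadjusted p under 0.05), beside 3.69%. SAG13 had 889, 844 and 8.71 FPKM in arid2/3/4, 88.0, 83.9 and 4.38 FPKM in epcr1/2, and 33.6, 35.7 and 1.46 FPKM in WT. Its level was highest in arid2/3/4 replicates 1 and 2, and it did not pass (limma adjusted p = 0.232 in arid2/3/4). SAG101 rose in epcr1/2 (log2 change of 1.65 ± 0.44, limma adjusted p = 0.0261), and ORE1 fell there (-1.05 ± 0.29, limma adjusted p = 0.0297).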
